A study of Mus musculus with 13 samples.

Results

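The early B-cell factor (Ebf) genes of the mouse encode the transcription factors Ebf1, Ebf2, Ebf3 and Ebf4, and their RNA was followed here across the cell types of the hippocampus and across age and diet. The members were matched by symbol in the gene list of the count matrices. Each symbol matched 1 gene, which gives 4 members among 32285 genes. The family was selected on measured values of these same libraries, because Ebf1 was known to be higher in oligodendrocyte precursor-like nuclei of old than of young mice fed without limit. The values of the Ebf genes in old against young mice are therefore a description with no test. Their diet comparisons were tested, as were the other genes named from lists in all comparisons.

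Ebf proteins bind DNA as dimers at a palindromic site, through a zinc-containing domain that sets them apart from other helix-loop-helix factors. Ebf1 is best known as the factor that commits lymphoid progenitors to the B-cell lineage. In other tissues Ebf1 and Ebf2 act in mesenchymal, vascular and adipose cells, and Ebf2 and Ebf3 act in developing neurons, among them Cajal-Retzius neurons, downstream of proneural factors. Ebf4 has been studied least.

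The data are single-nucleus RNA counts from whole frozen hippocampus of 13 female C3B6F1 hybrid mice, whose strain is spelled C3HB6F1 in the sample labels. The young group holds 3 mice aged 5 months fed ad libitum, and the old group holds 3 mice aged 24 months fed ad libitum. The acute restriction group holds 3 mice aged 24 months on dietary restriction from 20 months of age. The long-term restriction group holds 4 mice aged 24 months on dietary restriction from 5 months of age. No group carries a transgene or a deletion according to the labels. Each library is taken as 1 mouse, since the labels number the samples within a group and mention no pooling, and the p-values measure the spread between these samples. There is no young restricted group, so age and diet cannot be crossed. Nuclear RNA includes unspliced transcripts, so a gene's length can bear on its counts where introns are counted.

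After filtering, 98041 nuclei remained. Before filtering, the libraries held 38546292 to 80538090 UMIs (unique molecular identifiers, the counted molecules) each. The median in a library was 3801 to 11375 UMIs per barcode that passed the gene and mitochondrial limits, before doublets were removed. Pairs of libraries shared 4 to 40 barcodes, at most 0.471% of the smaller library. The nuclei formed 42 clusters, of which 18 were named from marker genes and joined into 13 classes holding 79086 nuclei. No Ebf gene was used to form or name a cluster. The labelled tissue was borne out by dentate granule, CA1 and CA3 pyramidal and hilar mossy classes with their own markers. An unnamed cluster of 50 nuclei, 29 of them from acute restriction replicate 2, was led by the cerebellar granule genes Gabra6 and Fat2. The 4 libraries numbered 1, 1 in each group, deviated together from their group means. Their deviations correlated pairwise at 0.40 to 0.81 in granule neuron-like and 0.22 to 0.38 in precursor-like nuclei. The 47 pairs with different numbers ran from -0.68 to 0.66 (median -0.15) and from -0.26 to 0.23 (median -0.09), so the ranges overlapped. Values without the libraries numbered 1 are given where a result rests on these libraries.

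All 4 genes are long, and the promoter windows of Ebf1, Ebf3 and Ebf4 differ in base composition. In the GENCODE M21 annotation of GRCm38, Ebf1 spans 391 kb of chromosome 11 on the plus strand (44617317 to 45008091) and is longer than 98.3% of the protein-coding genes counted. Ebf2 spans 198 kb of chromosome 14 on the plus strand (67233292 to 67430918). Ebf3 spans 121 kb of chromosome 7 on the minus strand (137193673 to 137314445), and Ebf4 spans 75.3 kb of chromosome 2 on the plus strand (130295169 to 130370481). Their annotated transcripts share no stretch of 31 bases with each other, so exonic reads of that length could not be taken for another member. Genes on the opposite strand overlap Ebf1, Ebf2 and Ebf3. In the named nuclei the overlapping genes held at most 37 UMIs each, and the strand setting used for counting is not given in the sources used here. No gene overlaps Ebf4.

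The promoter windows are shown to compare the base composition of Ebf1, Ebf3 and Ebf4, whose levels differ by cell type as described next. Each is a 300-base RefSeq window of GRCm38.p6 around an annotated start, written 5′ to 3′, with each match to the E-box CANNTG, the site of proneural factors, in capitals.
Ebf1, chr11:44617850-44618149, plus strand: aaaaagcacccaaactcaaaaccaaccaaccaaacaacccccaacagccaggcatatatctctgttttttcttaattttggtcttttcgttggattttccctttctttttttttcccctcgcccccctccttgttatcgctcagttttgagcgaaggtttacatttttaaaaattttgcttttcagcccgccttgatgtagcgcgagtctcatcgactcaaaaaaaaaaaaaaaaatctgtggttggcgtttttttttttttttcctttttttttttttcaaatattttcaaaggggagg
Ebf1, chr11:44619978-44620277, plus strand: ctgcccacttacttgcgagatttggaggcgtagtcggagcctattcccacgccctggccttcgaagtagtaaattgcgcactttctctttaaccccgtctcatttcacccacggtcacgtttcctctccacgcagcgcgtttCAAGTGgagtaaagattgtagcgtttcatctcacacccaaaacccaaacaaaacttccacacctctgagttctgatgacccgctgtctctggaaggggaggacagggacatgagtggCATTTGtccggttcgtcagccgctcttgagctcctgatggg
Ebf3, chr7:137314396-137314695, minus strand: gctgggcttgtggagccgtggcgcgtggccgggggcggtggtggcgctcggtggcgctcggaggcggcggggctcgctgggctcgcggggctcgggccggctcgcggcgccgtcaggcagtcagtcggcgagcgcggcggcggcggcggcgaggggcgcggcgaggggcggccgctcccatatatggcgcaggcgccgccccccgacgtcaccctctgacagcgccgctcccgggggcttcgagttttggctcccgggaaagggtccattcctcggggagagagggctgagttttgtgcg
Ebf4, chr2:130295689-130295988, plus strand: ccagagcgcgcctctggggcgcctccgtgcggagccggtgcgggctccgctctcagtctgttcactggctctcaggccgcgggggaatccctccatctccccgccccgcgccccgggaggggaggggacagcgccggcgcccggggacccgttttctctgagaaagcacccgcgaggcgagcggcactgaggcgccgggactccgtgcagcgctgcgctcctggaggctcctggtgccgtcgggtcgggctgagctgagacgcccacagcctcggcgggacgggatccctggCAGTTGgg

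The first Ebf1 window held 36.7% G and C, lower than in all but 5.33% of 32851 promoter windows of this length, and contained a run of 15 T bases. The second Ebf1 window held 53.0%, near the median of 52.7%. The Ebf3 window held 77.0% and the Ebf4 window 74.3%, above 97.6% and 95.6% of windows. The second Ebf1 window had 2 E-boxes and the Ebf4 window 1, while 72.3% of all windows had at least 1. The Ebf palindrome TCCCNNGGGA, searched on both strands, was in none of these windows and in 0.904% of all windows.

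Each Ebf gene had its own distribution over the cell classes. Among the named classes, Ebf1 was highest in vascular and mesenchymal nuclei, with a lower level in oligodendrocyte precursor-like nuclei. Among the named classes, Ebf2 was sparse and led by fibroblast-like nuclei, and Ebf3 was held by Cajal-Retzius-like neurons and microglia-like nuclei. Ebf4 was low and spread over neurons, astrocytes and precursors. An unnamed cluster described below held 247 Ebf2 UMIs and 360 Ebf3 UMIs, more than any named class. It also held 1900 Ebf1 UMIs, more than every named class except mural-like nuclei, which held 2274. The 98041 nuclei held 8947 UMIs of Ebf1, 517 of Ebf2, 1162 of Ebf3 and 15008 of Ebf4. Levels below are in CPM, the UMIs of a gene in a class scaled to 1 common total of UMIs for every mouse and class. They are averaged over mice with at least 20 nuclei of that class and are compared only within a gene. Exceptions are the percents of the mural level, marker levels of nuclei split by an Ebf UMI, and levels of unnamed clusters without an SD. Those are pooled over the nuclei of different mice.

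**Figure D1:**
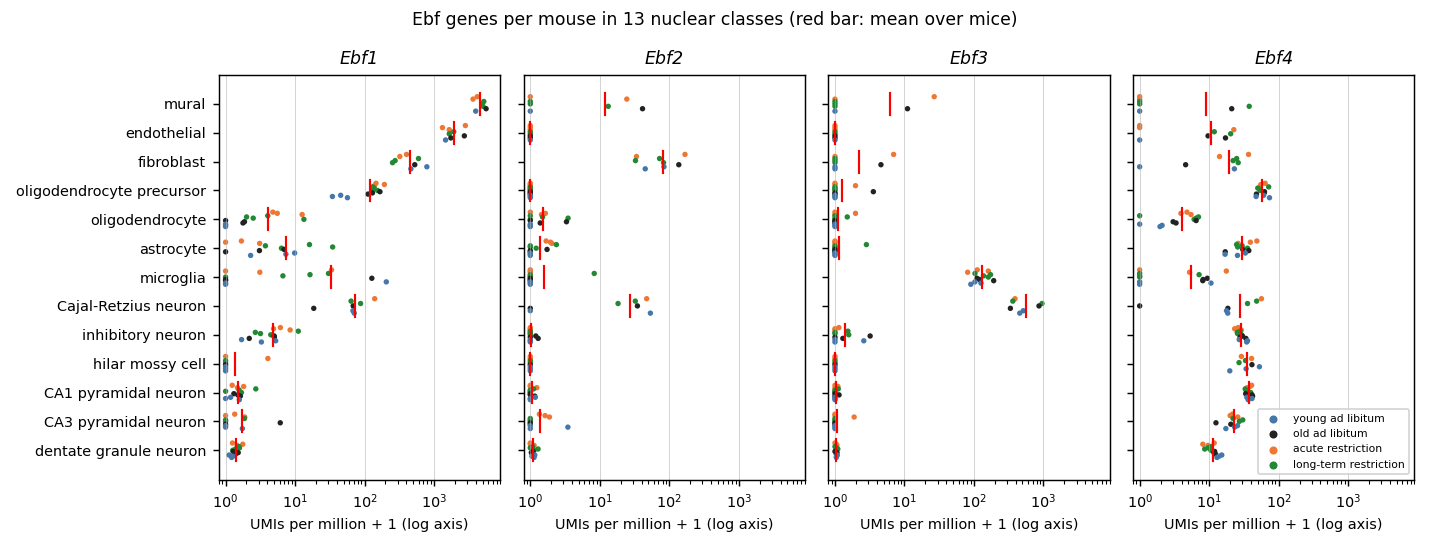
Level of each Ebf gene per mouse (points, coloured by group) in 13 nuclear classes, as CPM plus 1 on a log axis, with red bars at the mean over mice. Ebf1 runs from a mean of 4650 in mural-like nuclei to under 1 in granule neuron-like nuclei, while Ebf3 is far above the other classes in Cajal-Retzius-like and microglia-like nuclei.

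Ebf1 was highest in mural-like nuclei, the pericytes and smooth muscle cells of vessel walls, at 4650 ± 724 CPM (SD, n = 7 mice). There it was found in 331 of 335 nuclei, a share of 98.8% (95% exact binomial interval 97.0 to 99.7%). Endothelial-like nuclei followed at 1916 ± 562 (n = 8) with a share of 93.1%, and fibroblast-like nuclei at 453 ± 182 (n = 8) with a share of 40.2%. These 3 levels and the next did not overlap between mice: the lowest endothelial mouse was at 1322 and the lowest mural mouse at 3643. The binomial and Poisson intervals given here and below cover counting error only.

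Oligodendrocyte precursor-like nuclei came next, at 121 ± 47.7 CPM (n = 13), with an Ebf1 UMI in 704 of 2834 nuclei or 24.8% (23.3 to 26.5%). Cajal-Retzius-like neurons held 73.0 ± 36.0 (n = 7), with 1 to 15 UMIs per mouse. Young mice were at 67.1 and 70.1 beside precursor values of 33.5 to 55.8, and old ad libitum mice at 67.7 and 17.6 beside 111 to 166. The acutely restricted mouse was at 139 beside 137 to 192, and long-term restricted mice at 63.0 and 86.7 beside 130 to 153. The difference between these classes was not tested. Microglia-like nuclei averaged 32.0 ± 62.4 (n = 13), but 6 of 13 mice had no UMI, 1 young mouse was at 205 and only 10 of 1809 nuclei were positive. Astrocyte-like nuclei were at 6.49 ± 9.23, inhibitory neurons at 3.88 ± 2.61 and oligodendrocytes at 3.05 ± 4.26. CA3, CA1, granule and mossy neurons were all below 1. From precursor-like nuclei down, neighbours in this order overlapped between mice and did not differ beyond their spread.

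The share of positive nuclei also differed between classes. Granule neuron-like nuclei had an Ebf1 UMI in 102 of 40434 nuclei, a share of 0.252% at a median of 6373 UMIs per nucleus. Precursor-like nuclei had their 24.8% at a median of 3373 UMIs. After thinning every nucleus to 1000 UMIs and leaving out shallower ones, the shares were 97.2% in mural, 85.1% in endothelial and 27.8% in fibroblast-like nuclei. They were 10.2% in precursor-like nuclei and 5.10% in Cajal-Retzius-like neurons. Microglia, inhibitory neurons, astrocytes and oligodendrocytes were at 0.310, 0.296, 0.243 and 0.155%. CA1 neurons were at 0.0637% and granule neurons at 0.0471%, and CA3 and mossy neurons at 0. In oligodendrocytes, 50 of the 74 Ebf1 UMIs lay in 3 nuclei with 23, 18 and 9 UMIs, and in microglia 25 of 37 lay in 3 nuclei.

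Ebf1 in precursor-like nuclei was also set against the mural markers, since mural nuclei hold the most Ebf1. Ebf1 stood at 2.64% of its mural level there. The median of the 10 mural markers was 0.146% of theirs, and 9 of 10 were below Ebf1. The exception was Acta2, the smooth muscle actin gene, at 2.85% from 6 UMIs in precursors and 10 in mural nuclei. In astrocyte-like nuclei, by contrast, Ebf1 stood at 0.120% of its mural level and the marker median at 0.750%. Precursor-like nuclei with an Ebf1 UMI, pooled over mice, carried 81.1 CPM of mural markers against 23.0 in those without. The shares of nuclei with any mural marker UMI were closer, at 8.24% (58 of 704) and 6.85% (146 of 2130). A single nucleus of an old ad libitum mouse (replicate 1) held 32 Ebf1 UMIs. The precursor markers of nuclei with and without an Ebf1 UMI were alike, at 15559 and 15262 CPM.

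**Figure D2:**
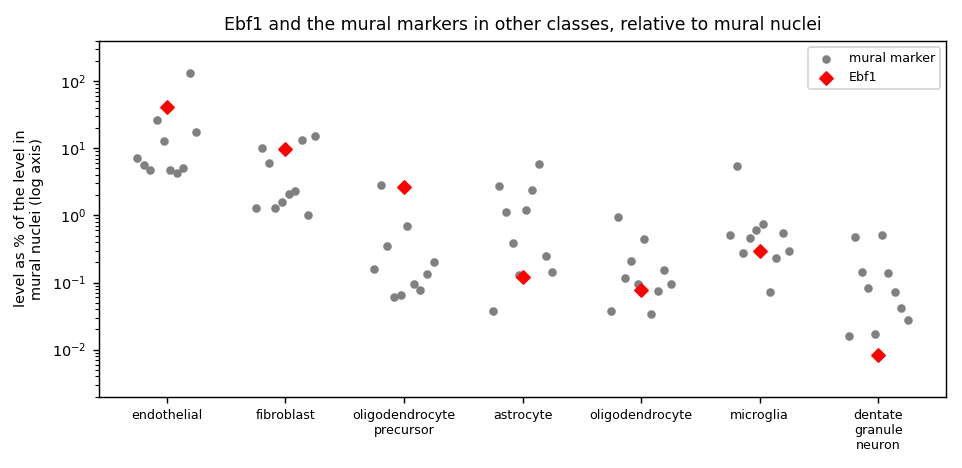
Level of Ebf1 (red diamonds) and of each of the 10 mural markers (grey points) in 7 other classes, as a percent of the level of the same gene in mural-like nuclei, on a log axis. In oligodendrocyte precursor-like nuclei Ebf1 lies above 9 of 10 mural markers, and in granule neuron-like nuclei it lies below all 10.

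In oligodendrocyte precursor-like nuclei, Ebf1 was about 3 times as high in old as in young ad libitum mice, and the restricted old mice overlapped with the other old mice. The young mice were at 44.3, 33.5 and 55.8 CPM (replicates 1, 2 and 3). The old ad libitum mice were at 166, 129 and 111 (replicates 1, 2 and 4). The acutely restricted mice were at 145, 192 and 137, and the long-term restricted mice at 130, 137, 132 and 153. All 10 mice aged 24 months were above all 3 mice aged 5 months, whatever their diet, and the 3 groups of old mice overlapped.

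The means were 44.5 ± 11.1 in young, 135 ± 27.7 in old, 158 ± 29.5 in acutely restricted and 138 ± 10.5 in long-term restricted mice (SD). As a description of the contrast that chose the family, the log2 fold change of old against young was 1.63 ± 0.21 (SE, edgeR), or 3.09-fold with a 95% interval of 2.29 to 4.16, the tenth most positive (rank 10) of 9138 genes and rank 117 by absolute size. Since this difference chose the family, it accounts for the 1 of 12 member and class pairs under the threshold used elsewhere, and nothing is read from that count beside the 1.74% of all gene and class pairs called. Without the libraries numbered 1 the log2 fold change was 1.47 ± 0.26 (2 against 2 mice). In granule neuron-like nuclei, where Ebf1 is near 0, young mice were at 0.122 to 0.269 CPM and old ad libitum mice at 0.284 to 0.519, a log2 fold change of 1.21 ± 0.52 from 3 to 15 UMIs per mouse.

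**Figure D3:**
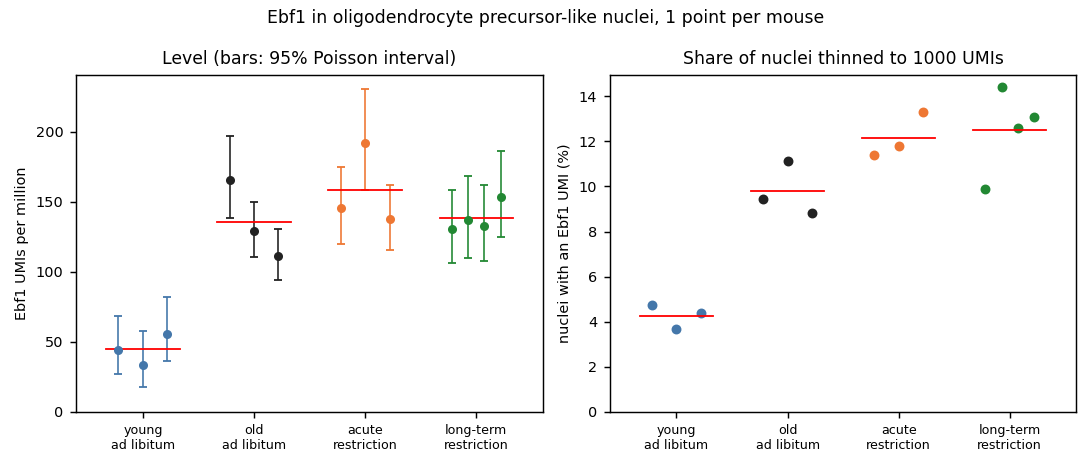
Ebf1 in oligodendrocyte precursor-like nuclei, 1 point per mouse and a red bar at each group's mean: left, CPM with 95% Poisson intervals, and right, the percent of nuclei with an Ebf1 UMI after thinning to 1000 UMIs. On the left the 3 young mice lie between 33.5 and 55.8 and the 10 old mice between 111 and 192, and the age groups are also apart on the right.

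At the depth as sequenced, both the share of positive nuclei and the UMIs per positive nucleus were higher in old mice. An Ebf1 UMI was found in 6.60 to 14.3% of precursor-like nuclei of the young group and 22.7 to 38.6% of the old group fed ad libitum. Positive nuclei, pooled over mice, held a mean of 1.16 UMIs in young and 1.95 in old ad libitum mice. Of 506 young nuclei 0 held 3 or more, and of 826 old ad libitum nuclei 42 did. A single nucleus held 32 of the 448 old ad libitum UMIs. These UMIs per nucleus were not compared at equal depth. Depth moved with age: the median UMIs per precursor-like nucleus was 1907 to 2841 in young, 3402 to 5999 in old, 2985 to 3783 in acutely restricted and 3177 to 4631 in long-term restricted mice. At 1000 UMIs per nucleus the shares were 3.66 to 4.73% in young, 8.81 to 11.1% in old, 11.4 to 13.3% in acutely restricted and 9.88 to 14.4% in long-term restricted mice, so young and old stayed apart, and the acute values also lay above those of old ad libitum mice. With the median depth as a covariate the log2 fold change was 1.17 ± 0.26.

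Vascular and fibroblast markers in this class overlapped between young and old mice, with the highest mural values in old ones. The summed mural markers were at 6.65 to 25.8 CPM in young, 13.9 to 123 in old, 22.4 to 77.8 in acutely restricted and 17.8 to 68.3 in long-term restricted mice. In young mice 3 of 10 mural markers had a UMI, and Pdgfrb, Rgs5, Notch3 and 4 others were at 0, whereas all 10 had one in old ad libitum mice. Endothelial markers were at 7.73 to 23.6 in young and 8.98 to 19.8 in old mice, fibroblast markers at 17.2 to 25.8 and 16.1 to 33.2, and the precursor markers themselves at 12887 to 14841 and 15418 to 16391. With the nuclei holding any mural, endothelial or fibroblast marker UMI left out, a check added after the data were seen, Ebf1 was at 31.8 to 61.7 in the young group and 107 to 130 in the old group fed ad libitum. The log2 fold change was then 1.45 ± 0.21.

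No restriction comparison moved Ebf1 past the threshold in precursor-like nuclei. Long-term restriction against old ad libitum feeding gave a log2 fold change of 0.06 ± 0.15 (SE, edgeR adjusted p = 0.971), with a 95% interval for the fold of 0.84 to 1.29. Acute restriction gave 0.25 ± 0.16 (edgeR adjusted p = 0.872), with an interval of 0.95 to 1.50. Long-term against acute restriction gave -0.20 ± 0.16 (edgeR adjusted p = 1.00), with an interval of 0.70 to 1.09. The first and second of these share the old ad libitum mice with each other and with the age comparison. Without the libraries numbered 1 they were 0.25 ± 0.17, 0.44 ± 0.18 and -0.20 ± 0.17, with adjusted p = 0.757, 0.392 and 0.998.

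In vessel-associated classes only some mice had enough nuclei for a value. Among mural-like nuclei, acutely restricted mice were at 4184 and 3643 and long-term restricted mice at 5207, 4855 and 5069, so the long-term values were all above the acute ones. The third acutely restricted mouse, left out with 14 mural-like nuclei, was at 5920, above them all. The 1 young mouse with enough nuclei was at 3977 and the 1 old ad libitum mouse at 5616. The log2 fold change of long-term against acute restriction was 0.40 ± 0.20 (edgeR, unadjusted p = 0.0459, adjusted p = 0.943). In endothelial-like nuclei the values ran from 1322 to 2826 in acutely restricted mice and were 2731 and 1748 in old ad libitum mice and 1922 and 1658 in long-term restricted mice. These groups overlapped, and the log2 fold changes were -0.22 ± 0.35 for acute and -0.28 ± 0.38 for long-term restriction (edgeR adjusted p = 0.999 and 1.00). In fibroblast-like nuclei, where long-term and acute restriction alone could be compared, the difference was 0.11 ± 0.38 (edgeR adjusted p = 0.998), and it was -0.45 without long-term replicate 1.

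Among the gene and class pairs that passed the filter on low counts, no Ebf gene was called under restriction. Of 13 member and class pairs, 0 passed an edgeR adjusted p of 0.05 for long-term restriction, beside 0.0330% of all gene and class pairs. Of 12 pairs, 0 passed for acute restriction, beside 0.231%. Of 16 pairs, 0 passed for long-term against acute restriction, beside 0.0110%. At an unadjusted p under 0.05, edgeR gave 1, 0 and 2 pairs, and DESeq2 called 0 in each and gave 1, 0 and 1 unadjusted. The median log2 fold change of the pairs was 0.06, -0.00 and -0.04, against 0.00, 0.00 and -0.00 over all gene and class pairs. The pairs under an unadjusted p of 0.05 in edgeR were Ebf4 in CA3 neurons under long-term restriction, and Ebf1 in mural-like and astrocyte-like nuclei for long-term against acute restriction. The last, a log2 fold change of 3.27 ± 1.03 (edgeR, unadjusted p = 0.00655, adjusted p = 1.00), rests on few nuclei: in long-term replicate 3 a single astrocyte-like nucleus held 15 Ebf1 UMIs, all of that mouse's.

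Ebf1 in oligodendrocytes did not pass the filter on low counts, and it was called where that filter was left out. Old ad libitum mice were at 0, 0.870 and 0.779 CPM, acutely restricted mice at 3.79, 4.55 and 11.7, and long-term restricted mice at 3.05, 1.00, 1.50 and 12.4. Positive nuclei numbered 4 in the old ad libitum group, 11 in the acute group and 10 in the long-term group. The old ad libitum mouse at 0 had 108 nuclei, and at that depth a count of 0 allows up to 8.25 CPM by the limit of 3 counts, above 5 of the 7 restricted mice, so the groups cannot be said to be apart. Without the filter the log2 fold change was 3.08 ± 0.64 for acute restriction (edgeR adjusted p = 0.000368) and 2.45 ± 0.67 for long-term restriction (edgeR adjusted p = 0.0461). With the 3 nuclei of most UMIs left out, a check added after the data were seen, the 3 mice that held them were at 1.63, 1.35 and 2.26, each from 5 UMIs or fewer. The calls did not hold in that fit: acute restriction gave 0.96 ± 0.83 (edgeR adjusted p = 0.706) and long-term restriction 1.01 ± 0.80 (edgeR adjusted p = 0.714). The 3 nuclei were picked by the value under test and all came from restricted mice. Leaving them out could only lower Ebf1 in the restricted groups, so the loss of the calls is no separate test.

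**Figure D4:**
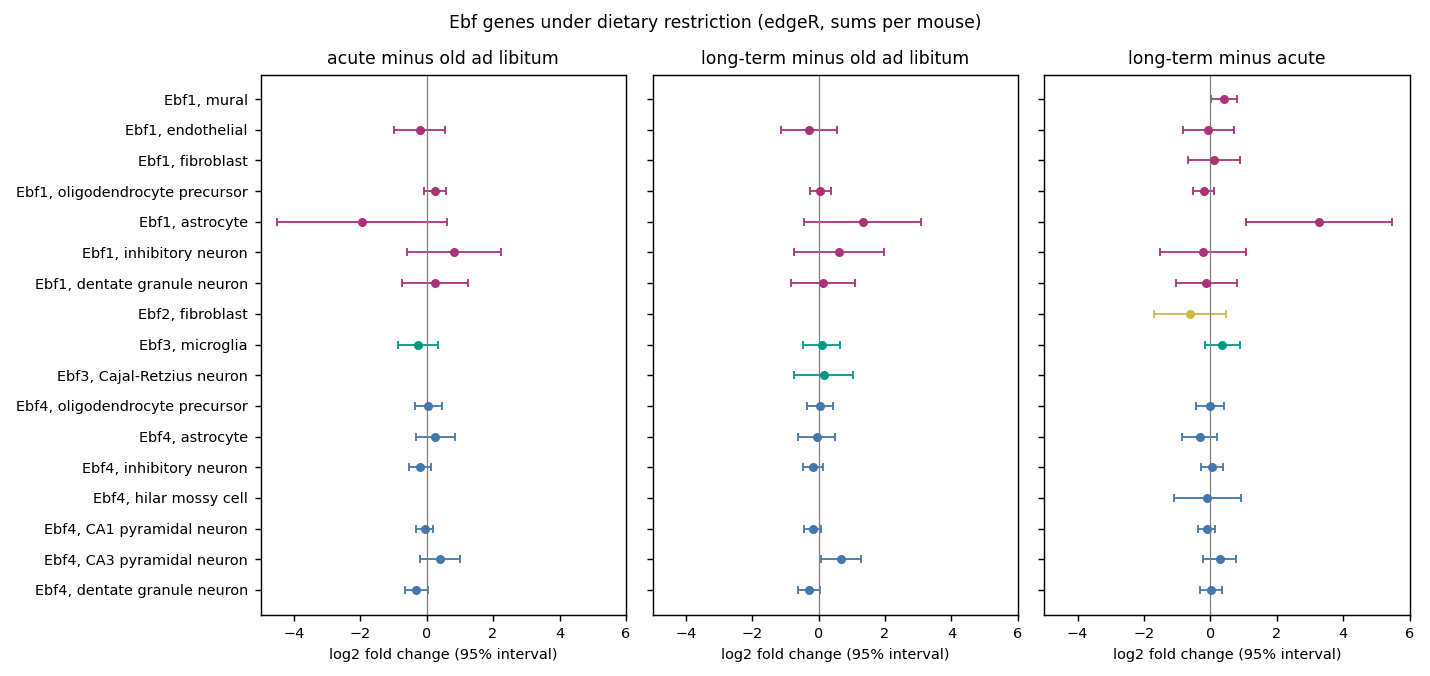
Log2 fold change (points) with 95% interval (bars) from edgeR for each Ebf gene and class under acute restriction, long-term restriction and long-term against acute restriction. Only 3 intervals leave out 0, those of Ebf4 in CA3 neurons under long-term restriction and of Ebf1 in mural-like and astrocyte-like nuclei for long-term against acute restriction, and none passed the adjusted threshold.

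Ebf2, which in other tissues acts in brown fat and in migrating neurons, was the sparsest member in these nuclei. It was highest in fibroblast-like nuclei, at 81.1 ± 48.9 CPM (SD, n = 8) and in 68 of 564 nuclei or 12.1% (9.49 to 15.0%). Cajal-Retzius-like neurons held 25.9 ± 21.0 (n = 7) from 19 UMIs, and mural-like nuclei 10.9 ± 15.8 (n = 7) from 9 UMIs. Those 3 ranges overlapped between mice. Means in every other class were below 1, though 0 UMIs in endothelial-like nuclei still allow up to 3.57 CPM by the limit of 3 counts. Precursor-like nuclei, in which Ebf1 was readily found, had 0 Ebf2 UMIs, which allows up to 0.301 CPM by the same limit. In fibroblast-like nuclei the acutely restricted mice were at 168 and 32.8 and the long-term restricted mice at 71.6, 31.7 and 81.9. These overlapped, with a log2 fold change of -0.61 ± 0.53 for long-term against acute restriction (edgeR adjusted p = 0.998) that became 1.02 without acute replicate 1. Of the 227 fibroblast-like nuclei with Ebf1, 15.0% also had Ebf2, and of those without Ebf1, 10.1% had it.

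Ebf3 was the member of Cajal-Retzius-like neurons, the Reln-producing neurons of the outer molecular layers. They held 553 ± 251 CPM (SD, n = 7), with an Ebf3 UMI in 187 of 323 nuclei or 57.9% (52.3 to 63.3%). Microglia-like nuclei were the other class with Ebf3, at 128 ± 34.1 (n = 13) and in 276 of 1809 nuclei or 15.3% (13.6 to 17.0%). The ranges of the classes did not overlap, and microglia were in turn above every remaining class, which all averaged at most 5.13. Granule neurons had Ebf3 in 13 of 40434 nuclei, a share of 0.0322%.

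The microglial Ebf3 was present in all 13 mice, at 80.2 CPM or more. Young mice were at 102, 125 and 89.2, old ad libitum mice at 110, 119 and 192, acutely restricted mice at 111, 160 and 80.2, and long-term restricted mice at 103, 173, 136 and 160. The groups overlapped. Old against young, as a description, was 0.42 ± 0.35 on the log2 scale. Long-term restriction gave 0.09 ± 0.28, acute restriction -0.27 ± 0.29 and long-term against acute restriction 0.36 ± 0.26, each with an edgeR adjusted p = 1.00. The interval for long-term restriction was 0.72 to 1.58-fold. Markers of Cajal-Retzius neurons were close to absent in these nuclei: 2.17% of the Ebf3-positive and 1.96% of the Ebf3-negative nuclei had a UMI of any of the 8, and Lhx1, Lhx1os, Lhx5 and Nhlh2 were at 0 in every group. Summed microglial markers were at 8562 CPM in positive and 7496 in negative nuclei, and macrophage markers at 222 and 1595.

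Among Cajal-Retzius-like neurons, 7 mice had enough nuclei. Young mice were at 512 and 455, old ad libitum mice at 863 and 334, the acutely restricted mouse at 389 and long-term restricted mice at 362 and 953. The groups overlapped, and the pairs of old ad libitum and of long-term restricted mice each differed widely. Old against young was 0.17 ± 0.41 as a description, and -0.67 without old ad libitum replicate 2. Long-term restriction against old ad libitum feeding was 0.15 ± 0.42 (edgeR adjusted p = 0.971), which became -0.70 without long-term replicate 4. The libraries numbered 1 held 1 to 9 such nuclei each and entered none of these values.

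**Figure D5:**
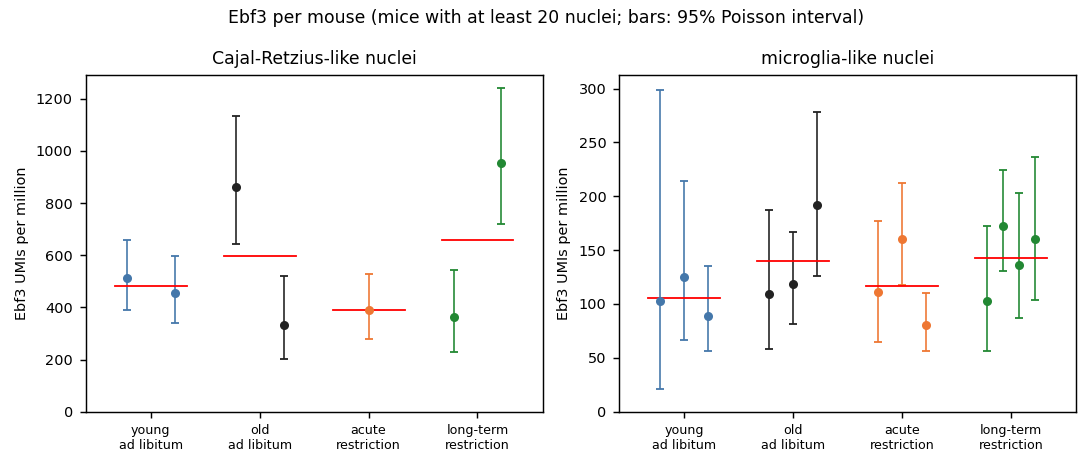
Ebf3 in Cajal-Retzius-like (left) and microglia-like (right) nuclei, as CPM, 1 point per mouse with at least 20 nuclei, 95% Poisson intervals and a red bar at each group's mean. The 4 groups overlap in both classes, and all 13 mice have microglial Ebf3 between 80.2 and 192.

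Ebf4 had the most UMIs of the family because large neuronal classes carried it at low levels. It was highest in precursor-like nuclei, at 57.4 ± 8.41 CPM (SD, n = 13) and in 17.8% of nuclei, and no CA1 value reached the lowest precursor value of 46.4. The highest mossy cell, Cajal-Retzius and astrocyte values, 51.9, 55.6 and 47.6, lay within the precursor range. CA1 neurons followed at 36.5 ± 3.33, mossy cells at 33.8 ± 10.2, astrocytes at 29.0 ± 8.86, inhibitory neurons at 27.9 ± 3.77, Cajal-Retzius-like neurons at 27.1 ± 19.6 and CA3 neurons at 21.4 ± 4.93. Those neighbours did not differ beyond their spread. Fibroblast-like nuclei were at 18.1 ± 11.9, granule neurons at 10.3 ± 2.04, endothelial-like nuclei at 9.59 ± 8.97, mural-like nuclei at 8.12 ± 14.7 and microglia at 4.57 ± 5.23. Oligodendrocytes, with 3.06 ± 2.16, were the lowest, though microglia did not differ from them beyond the spread. Precursors and oligodendrocytes, which are 1 lineage, thus stood at opposite ends of the order for Ebf4, and their ranges over mice did not overlap.

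Ebf4 in precursor-like nuclei did not follow Ebf1. Young mice were at 59.9, 46.4 and 72.9 and old ad libitum mice at 61.6, 61.0 and 46.9, acutely restricted mice at 63.0, 54.6 and 53.6, and long-term restricted mice at 70.9, 49.1, 53.3 and 53.1. All groups overlapped. The log2 fold change of old against young was -0.05 ± 0.22 as a description, long-term restriction gave 0.04 ± 0.19 and acute restriction 0.05 ± 0.20 (edgeR adjusted p = 0.992 and 0.995).

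In granule neuron-like nuclei Ebf4 was at 14.2, 12.8 and 12 in young mice and at 11, 10.7 and 11.3 in old mice on free feeding. Acutely restricted mice were at 10.8, 7.11 and 8.64 and long-term restricted mice at 9.51, 8.70, 7.63 and 9.57, so that all 4 long-term values lay below all 3 old ad libitum values. The log2 fold change for long-term restriction was -0.30 ± 0.15 (edgeR adjusted p = 0.999) and for acute restriction -0.31 ± 0.16 (adjusted p = 0.978). In CA1 neurons the long-term value was -0.18 ± 0.11 (edgeR adjusted p = 0.970). In CA3 neurons Ebf4 was at 11.5 and 19.5 in old ad libitum mice and at 21.1, 29.4 and 26.2 in long-term restricted mice, which did not overlap. The third old ad libitum mouse, left out with 19 nuclei, was at 24.3, within the long-term range. The difference without that mouse was 0.67 ± 0.29 (edgeR, unadjusted p = 0.0317, adjusted p = 1.00), and was 0.39 without old ad libitum replicate 1, the mouse at 11.5.

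Nuclei outside the named classes carried Ebf genes as well. An unnamed cluster of 770 nuclei, led by D130079A08Rik, D130009I18Rik, Otx2os1, Syt9 and Lef1, held 286 CPM of Ebf1, 37.1 of Ebf2 and 54.1 of Ebf3. Tac2, Vipr2, Ebf3 and Ebf1 were also among its 10 leading genes. With 247 of the 517 Ebf2 UMIs and 360 of the 1162 Ebf3 UMIs, it held more of each than any named class. Its CPM was below that of fibroblast-like nuclei for Ebf2 and of Cajal-Retzius-like neurons for Ebf3. It came unevenly from the libraries, with 269 nuclei and 1102 of the 1900 Ebf1 UMIs from long-term restriction replicate 1, and 3 to 110 nuclei from each of the others. Without that library the levels were 171 CPM of Ebf1, 42.5 of Ebf2 from 198 UMIs and 60.8 of Ebf3 from 283 UMIs. Over the 10 mice with at least 20 such nuclei, Ebf1 averaged 212 ± 154 CPM (SD) and ran from 46.2 to 551. Ebf2 and Ebf3 met in the same nuclei: 41 of the 53 with Ebf2 had Ebf3, or 77.4%, against 11% of those without Ebf2.

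The nuclei of that cluster were described by which Ebf RNA they held, a division made after the values were seen. The 120 nuclei with Ebf3, of which 82 also had Ebf1, came from 12 libraries and were led by Avp, Bnc2 and Mecom, with Zfp521, the gene of an Ebf partner protein, among the leading 8. The 198 nuclei with Ebf1 and no Ebf3 were led by Cngb3, Lamc3 and D130009I18Rik, and 118 of them came from long-term restriction replicate 1. Another unnamed cluster, of 212 nuclei led by Slc47a1 and Bnc2, held 207 CPM of Ebf1 and 0 UMIs of Ebf3. Over the 5 mice with at least 20 nuclei of it, Ebf1 averaged 149 ± 44.1 CPM (SD). The 50 nuclei led by Gabra6 and Fat2 held 254 CPM of Ebf1 and 99.1 of Ebf3, from 41 and 16 UMIs. Trp73 and Ndnf, markers of Cajal-Retzius neurons, were also among the 10 leading genes of that cluster, and 29.6% of its barcodes were removed as doublets. Pooled over nuclei in the same way, precursor-like nuclei held 127 CPM of Ebf1, below these clusters and the cluster of 770 nuclei. Among clusters with at least 20 nuclei, Ebf4 was highest in an unnamed cluster of 1621 nuclei led by Gm6260 and Fn1, at 90.4 ± 10.1 (SD, n = 12 mice), a mean above that of every named class, though its lowest mouse, at 71.2, was below the highest precursor value.

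Genes known to work with the Ebf family were followed in the same fits. The lists were drawn up with earlier results of these data known, and counts are over gene and class pairs. Of 9 protein partners, all passed the filter on low counts in some class. In 66 age pairs 1 was called higher and 0 lower, close to the 1.74% over all gene and class pairs: Zfp423, a zinc finger partner of Ebf1, in granule neurons, at 1.2 ± 0.26 on the log2 scale (edgeR adjusted p = 0.0394). In the 72 long-term, 67 acute and 85 long-term against acute pairs, 0 were called. By mean log2 level, 4 of the 9 were highest in microglia, 2 in fibroblast-like nuclei and 1 each in endothelial, mural and Cajal-Retzius-like nuclei. Several of them did not differ from their second class beyond the spread between mice. Zfp423 and Zfp521 were highest in fibroblast-like nuclei, as Ebf2 was, at 202 ± 51.8 and 437 ± 136 CPM (SD, n = 8). Astrocytes followed at 116 ± 24.4 and 349 ± 42.2 (n = 13), for Zfp521 within the spread between mice. Runx1 was highest in microglia, at 1058 ± 218 (n = 13).

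Of the 11 B-lineage genes that are known to be regulated with Ebf1 in lymphocytes, 4 passed the filter. Foxo1, Tcf3 and Ikzf1 had 41438, 8049 and 3221 UMIs in the named nuclei, Ikzf1 mostly in microglia at 1041 ± 83.2 CPM (SD, n = 13), and the other 8 had at most 290. Foxo1, a forkhead factor used far beyond B cells, was called higher with age in granule neurons, at 0.41 ± 0.10 (edgeR adjusted p = 0.0495), and no other of the 19 pairs was, beside 1.74% over all pairs. Under restriction 0 of 21, 20 and 23 pairs were called.

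Of 10 proneural and neuronal differentiation genes, 4 passed the filter and 0 pairs were called in any comparison, of 12, 12, 10 and 12 tested. In Cajal-Retzius-like neurons, where Ebf3 was highest, 5 of the 10 had their highest level, but Trp73, Lhx1, Lhx5 and Nhlh2 were markers used to name the class, which fixed their place, and the fifth was Nhlh1. Neurod1 and Neurod2 were highest in granule neurons, where Ebf3 was nearly absent, and Neurog1 in astrocytes, none of them beyond the spread between mice against the second class. Neurog2, a proneural gene upstream of Ebf genes in the embryo, had 39 UMIs in the named nuclei. Among 12 adipogenic and mesenchymal genes, Pparg was called higher with age in granule neurons (0.72 ± 0.15, edgeR adjusted p = 0.0332) and Cebpd lower in oligodendrocytes (-1.52 ± 0.41, edgeR adjusted p = 0.0248), of 29 pairs, beside 1.74% over all pairs. The median over those pairs, which come from 9 genes and share mice, was -0.56, against -0.03 over all pairs in the age comparison. The only such pair in precursors was at 0.22. Age medians of the other lists were 0.06 for partners, 0.06 for B-lineage genes and -0.28 for proneural and differentiation genes. No list was tested as a set. Under restriction 0 of 31, 31 and 41 pairs were called. By mean log2 level, 4 of the 12 were highest in fibroblast-like nuclei (Cebpb, Tbx18, Foxc1 and Foxc2), 2 in mural-like nuclei (Tbx15 and Twist1) and 1, Cebpd, in endothelial-like nuclei. Of the rest, Pparg and Meox2 were highest in granule neurons, Prrx1 and Meox1 in precursors and Cebpa in microglia. Except for Prrx1 and Meox1, these genes did not differ from their second class beyond the spread between mice. Pparg, for example, was at 50.8 ± 9.25 CPM in granule and 49.2 ± 7.11 in CA3 neurons.

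The genes whose mean log2 level over the 13 classes was most like that of each member were picked from 15458 genes with at least 500 UMIs (15459 for Ebf2). For Ebf1 they were Tns2, Lama4, Vtn, Dock6 and Mill2 (Pearson's r 0.92 to 0.90). For Ebf2 they were Slc22a5, Eya2, Pspc1, Bmp6 and Gigyf2 (0.91 to 0.87), and for Ebf3 Gm20089, Aatf, Ripk2, Syk and Ep400 (0.93 to 0.88). For Ebf4 they were Ppp2r2b, Gm26691, Gm17753, Nol4 and Lrp3 (0.95 to 0.92). Among the members themselves, r was 0.48 between Ebf1 and Ebf2, 0.33 between Ebf2 and Ebf3, and -0.38 between Ebf1 and Ebf4. These are descriptions over 13 classes that share libraries and differ in depth.

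Within precursor-like nuclei, the 5 genes whose level over the 13 mice was most like that of Ebf1, of 9137 compared, were Tead1, Oxr1, Msra, Adra1a and Negr1 (Pearson's r 0.96 to 0.94). Tead1 is a transcription factor of the Hippo pathway and Adra1a an adrenergic receptor. As a description, the log2 fold changes of old against young were 1.10, 0.58, 0.64, 0.96 and 0.45. After the group means were removed, r was between 0.34 and 0.65. The mice share their groups and the depth that goes with age, so the likeness over mice is not separate from the age difference.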

How the data were processed

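Single-nucleus RNA was measured in 13 libraries of whole frozen hippocampus, made with 10x chemistry from Hoechst-sorted nuclei, per the labels' protocols. The deposited values are UMI counts per gene and barcode, made by the authors with Cell Ranger 4.0.0 on mm10 per the submitters' processing notes. Whether reads were counted by strand, and how intronic reads were treated, is not given in the sources used here. The library totals ran from 38546292 to 80538090 UMIs.

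Nuclei needed 500 genes or more and a mitochondrial share of 5% or less, and scrublet (scanpy 1.11.5) with an expected 0.8% doublets per 1000 barcodes removed 7386. Of 105759 barcodes, 98041 remained. Clustering used 2000 variable genes without the Ebf genes, 30 components, 20 neighbours and Leiden resolution 1. A cluster took the name of the class with the highest mean log2 fold over its markers. That mean had to reach 1, with at least 3 markers raised (log2 fold of at least 1, detected in at least 10% of nuclei). Clusters with 50% or more doublets, with leading mitochondrial genes, with more leading markers of another class, or shallow without leading markers stayed unnamed. A rule against the cerebellar granule genes Gabra6 and Fat2 among the leading genes of Cajal-Retzius clusters was added after the clusters were seen. It left a cluster of 50 nuclei unnamed. In total 24 of 42 clusters stayed unnamed. Counts were summed per mouse and class, with at least 20 nuclei, and all genes that passed edgeR's filter were fitted with edgeR 4.0.16 (quasi-likelihood, TMM, Benjamini-Hochberg) under R 4.3.3, with all groups in one fit. The fit was tested on simulated data. DESeq2 1.42.0, other normalization, no filter, other nuclei minimums, kept doublets, a depth covariate, fits without the libraries numbered 1, the replicate number as a block and each library left out were alternatives, and the nuclei without vascular marker UMIs were added after the data were seen.

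All 4 members are named, as are the 5 genes most like each of them and list genes that were called or on which a sentence turns. Other list genes enter the counts, and the result of 1 is not reported here. The members and gene lists were chosen with earlier results of these data known. Samples without a class minimum were left out of that class. The replicate numbers are taken as names only: of 10 pairs with the same number other than 1, between 2 (precursors, astrocytes) and 6 (oligodendrocytes) deviated together with a correlation over 0.1 in the 5 classes checked, and in no class did all.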

Additional observations from a re-analysis of the deposited data

Results flagged for a closer look

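Ebf4 in oligodendrocyte-like nuclei was at 0 CPM in long-term restriction replicate 1, from 186 nuclei, while the other 3 long-term restricted mice lay between 5.08 and 6.03. The gap between this mouse and the nearest of the others was large against the range of its group. At this depth a count of 0 allows up to 9.14 CPM by the limit of 3 counts, above the level of the other mice, so a lower level in this mouse was not detectable. Chance alone gives such a gap in about 1 in 20 groups, so 1 of the 12 groups examined is about what chance gives. Ebf4 is low in this class, with 69 UMIs over all 13 mice.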

How the results depend on the processing

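As a description, Ebf1 in precursor-like nuclei was higher in old than in young mice under every alternative run, at 1.47 to 1.83 on the log2 scale with each library left out, 1.63 with the replicate block and 1.17 with the median depth as a covariate. The restriction comparisons had 0 calls with each library left out, with DESeq2 and with the replicate block. For the fits without a filter on low counts, the share of all gene and class pairs called is not given here, so nothing is read from the count of calls. In them, long-term and acute restriction each had 1 call, Ebf1 in oligodendrocytes, where 21724 genes were tested. Of its 74 UMIs there, 50 lay in 3 nuclei, all of restricted mice. In further fits without a filter, added after the data were seen, it was 2.45 (edgeR adjusted p = 0.0595) and 4.27 (2.78e-05) with the replicate block, 2.43 (0.0382) and 3.09 (0.000358) without the libraries numbered 1, and 1.01 (0.714) and 0.96 (0.706) without those 3 nuclei, for long-term and acute restriction in that order. After thinning, the shares of positive nuclei were 85.1, 27.8 and 10.2% for Ebf1 in endothelial, fibroblast and precursor-like nuclei, 8.89% for Ebf2 in fibroblasts, 37.9 and 10.9% for Ebf3 in Cajal-Retzius-like neurons and microglia, and 6.19% for Ebf4 in precursors.

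Differences that were not called turned sign in places. With at least 10 nuclei, Ebf1 in endothelial nuclei was 0.0163 for long-term restriction and 0.23 for long-term against acute restriction, which was 0.0845 without a filter, and Ebf3 in Cajal-Retzius-like neurons was -0.0711 for long-term restriction. With the replicate block, Ebf3 in microglia was 0.00402 for acute restriction, and Ebf4 in precursors was -0.0170 for long-term and -0.0712 for acute restriction. Ebf4 in precursors was -0.0357 for long-term restriction without the libraries numbered 1. The cause was not tested.

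With each library left out, Ebf1 in endothelial nuclei ran from -0.60 to 0.0612 for long-term, -0.55 to 0.13 for acute and -0.22 to 0.29 for long-term against acute restriction. In precursors it ran from -0.0785 to 0.23, 0.11 to 0.42 and -0.29 to -0.05, and in fibroblasts from -0.45 to 0.34 for the last comparison. Ebf2 in fibroblasts ran from -1.33 to 1.02. Ebf3 for long-term restriction ran from -0.70 to 0.98 in Cajal-Retzius-like neurons and -0.0563 to 0.33 in microglia, where acute restriction ran from -0.62 to 0.00481. Ebf4 in precursors ran from -0.10 to 0.12 for long-term and -0.0899 to 0.12 for acute restriction. The age difference of Ebf3 in Cajal-Retzius-like neurons ran from -0.67 to 0.73. The age difference of Ebf4 in precursors ran from -0.19 to 0.14, and was 0.0748 with the replicate block and 0.0438 without a filter. Of all values for single genes under restriction, 162 under other settings and 241 with a library left out kept their direction, and 8 and 17 turned.

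The replicate block is given here only. The libraries numbered 1 deviated together, with 6 of 6 pairs over 0.1 in precursors, but of the other pairs with the same number 2 of 10 did there and 6 of 10 in oligodendrocytes, and 4 of 13 samples correlated best with their own number in precursors and 7 of 13 in CA1 neurons. Ebf2 rests on 517 UMIs in all, and old and young mice could not be compared in mural, endothelial and fibroblast-like nuclei, which had too few mice with enough nuclei.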
